A study of Mus musculus with 6 samples.

Results

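The genes described here are 10 genes by which mouse regulatory T cells are commonly recognised, Foxp3, Il2ra, Ctla4, Ikzf2, Ikzf4, Tnfrsf18, Nrp1, Lrrc32, Entpd1 and Nt5e, read out in cultures driven toward the opposite fate, the Th17 cell. They were taken by name as 10 of the 55450 genes in the deposited tables, with earlier results of these data already known. All 10 passed the filter on low counts, as did 14958 genes in all. The 6 libraries formed 3 groups of 2, called here ADAR2 WT, ADAR2 E396A and empty vector. All 6 were naive CD4+ T cells of wild-type mice 8 to 12 weeks old, activated on plates with 0.25 µg/mL anti-CD3ε and 1 µg/mL anti-CD28 under 0.1 ng/mL TGF-β and 20 ng/mL IL-6. At 24 h they were transduced with an MSCV retrovirus and were then kept for 48 h in 0.3 ng/mL TGF-β and 20 ng/mL IL-6, to 72 h. ADAR2 WT cells received the RNA deaminase ADAR2, which turns adenosine into inosine in double-stranded RNA, ADAR2 E396A cells its enzymatically dead form, and empty vector cells the retrovirus alone. Each group had 1 culture from each of 2 mice, named donors A and B arbitrarily, and the sources used here do not say whether transduced cells were sorted. The library columns carried no donor label: the donor of each library was read from the authors' deposited statistics.

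Regulatory T cells restrain immune responses, and Foxp3 is the transcription factor that defines them. TGF-β on its own steers activated naive CD4 T cells toward Foxp3 expression, whereas TGF-β with IL-6 steers them toward Th17 cells, so that these fates compete for the same precursor. Many genes used as regulatory T cell markers are not exclusive to that lineage: Il2ra, Ctla4 and Tnfrsf18 are also switched on when a conventional T cell is activated. The ectoenzymes encoded by Entpd1 (CD39) and Nt5e (CD73) degrade extracellular ATP to adenosine in sequence, and the product of Lrrc32 (GARP) holds latent TGF-β on the cell surface.

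The Th17 label was checked first. The summed level of 10 Th17 markers was 38484 to 60509 normalized counts in ADAR2 WT, 29894 to 73755 in ADAR2 E396A and 31020 to 45946 in empty vector libraries, and that of 4 T cell markers was 24362 to 35370 over the 6 libraries. Several defining markers of other cells were at or near 0: Ms4a1, Siglech and Gp1bb had 0 reads in every library, Cdh5 at most 1, Itgam at most 2 and Pdgfra at most 3. Others were not: the B cell receptor genes Cd79a and Cd79b had 7 to 40 and 16 to 25 reads, the myeloid marker Cd68 34 to 70, the platelet integrin gene Itga2b 26 to 52, and the endothelial marker Pecam1 173 to 388. Of the plasmacytoid dendritic list Tcf4 had 258 to 410 and Irf8 717 to 1554 reads, and of the stromal list Pdgfrb 5 to 15. Reads assigned to genes ranged from 16496328 to 21897166 per library. Adarb1, which encodes ADAR2, stood at 19077 and 18499 normalized counts in ADAR2 WT and 14982 and 15709 in ADAR2 E396A libraries, against 3346 and 3687 in empty vector libraries (donors B and A).

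The sequence around the transcription start, 250 bases before to 50 bases after it, is printed for the most abundant of the 10 genes (Il2ra), the least abundant (Foxp3) and those genes that differed between the donors and had a RefSeq entry. RefSeq windows on GRCm38.p6 matched 7 of the 10 genes, in 9 windows; Ikzf2, Ikzf4 and Lrrc32 were not matched. All lie on the plus strand: Il2ra at chr2:11642542-11642841, Foxp3 at chrX:7579426-7579725 and chrX:7580233-7580532, Nrp1 at chr8:128358823-128359122, Nt5e at chr9:88327359-88327658, Tnfrsf18 at chr4:156026072-156026371, and Entpd1 at chr19:40612116-40612415 and chr19:40659520-40659819. Capitals mark matches to 4 motifs searched on both strands: STAT (TTCNNNGAA), RUNX (TGTGGT), forkhead (TGTTTAC) and AP-1 (TGANTCA).
Il2ra: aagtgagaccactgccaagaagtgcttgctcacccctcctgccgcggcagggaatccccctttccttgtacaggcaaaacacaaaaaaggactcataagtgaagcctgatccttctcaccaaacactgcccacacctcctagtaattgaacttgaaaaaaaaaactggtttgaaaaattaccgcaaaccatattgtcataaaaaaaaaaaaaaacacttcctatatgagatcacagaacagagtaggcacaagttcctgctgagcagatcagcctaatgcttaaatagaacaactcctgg
Foxp3, upstream start: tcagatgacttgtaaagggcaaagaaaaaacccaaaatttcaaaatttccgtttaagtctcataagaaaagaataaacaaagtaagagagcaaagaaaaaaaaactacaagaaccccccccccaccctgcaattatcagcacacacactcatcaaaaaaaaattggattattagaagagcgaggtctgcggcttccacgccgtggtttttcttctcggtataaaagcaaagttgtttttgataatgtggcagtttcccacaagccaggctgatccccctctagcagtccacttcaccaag
Foxp3, downstream start: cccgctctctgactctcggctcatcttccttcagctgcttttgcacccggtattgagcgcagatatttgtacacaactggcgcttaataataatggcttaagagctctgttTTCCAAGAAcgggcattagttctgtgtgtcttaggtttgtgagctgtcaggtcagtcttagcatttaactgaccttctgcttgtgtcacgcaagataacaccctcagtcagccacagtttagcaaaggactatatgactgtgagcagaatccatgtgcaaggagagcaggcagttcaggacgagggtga
Nrp1: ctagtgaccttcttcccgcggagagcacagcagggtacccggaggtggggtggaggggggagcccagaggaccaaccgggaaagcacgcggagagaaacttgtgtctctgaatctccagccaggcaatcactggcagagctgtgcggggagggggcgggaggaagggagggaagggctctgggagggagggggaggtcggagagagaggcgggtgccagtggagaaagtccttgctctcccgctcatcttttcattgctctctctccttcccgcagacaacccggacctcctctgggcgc
Nt5e: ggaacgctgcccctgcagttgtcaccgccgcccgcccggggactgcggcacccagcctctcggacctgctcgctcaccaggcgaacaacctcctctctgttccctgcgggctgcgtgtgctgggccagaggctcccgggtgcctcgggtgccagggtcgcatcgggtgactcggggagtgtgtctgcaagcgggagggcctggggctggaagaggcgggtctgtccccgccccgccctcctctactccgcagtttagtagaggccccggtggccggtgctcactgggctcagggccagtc
Tnfrsf18: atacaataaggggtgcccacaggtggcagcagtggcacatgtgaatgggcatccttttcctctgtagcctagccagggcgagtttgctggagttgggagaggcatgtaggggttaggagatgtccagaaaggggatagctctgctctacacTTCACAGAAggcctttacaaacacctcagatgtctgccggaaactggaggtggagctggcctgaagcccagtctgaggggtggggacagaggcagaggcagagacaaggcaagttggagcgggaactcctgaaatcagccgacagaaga
Entpd1, upstream start: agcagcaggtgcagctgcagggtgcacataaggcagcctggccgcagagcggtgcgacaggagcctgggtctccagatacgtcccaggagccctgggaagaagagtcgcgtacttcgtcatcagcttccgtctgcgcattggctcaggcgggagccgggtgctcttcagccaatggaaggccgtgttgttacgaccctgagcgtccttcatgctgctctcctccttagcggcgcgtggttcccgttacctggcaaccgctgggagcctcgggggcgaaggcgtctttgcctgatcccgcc
Entpd1, downstream start: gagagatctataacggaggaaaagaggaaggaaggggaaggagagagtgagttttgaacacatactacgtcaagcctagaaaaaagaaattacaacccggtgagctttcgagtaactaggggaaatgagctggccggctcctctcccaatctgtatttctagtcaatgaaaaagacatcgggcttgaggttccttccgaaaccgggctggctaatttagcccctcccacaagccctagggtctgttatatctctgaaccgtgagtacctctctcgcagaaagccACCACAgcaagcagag

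Of these windows, the downstream Foxp3 window held a STAT match 139 bases before the start (position -139) and the Tnfrsf18 window another (position -99). The downstream Entpd1 window held a RUNX match, on the minus strand, at position 35 after the start. No forkhead or AP-1 letters occurred in the windows of the 7 genes. Over all 32851 promoter windows of this length, 8.30% held the STAT, 16.8% the RUNX, 3.65% the forkhead and 7.81% the AP-1 letters. A match is a string of letters and not a measured binding site.

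Per kilobase of exon the 10 genes spanned a wide range of levels. Il2ra, the alpha chain of the IL-2 receptor, averaged 20900.5 normalized counts per kb and stood at the 99.9th percentile of the tested genes. Foxp3 averaged 2.78 per kb and stood at percentile 3.82, so that Il2ra was 7508 times as abundant per kb. The median tested gene stood at 77.8 per kb. Between these came Ctla4 (6935 per kb), Tnfrsf18 (2431), Ikzf4 (161), Entpd1 (76.2), Lrrc32 (63.0), Ikzf2 (21.8), Nrp1 (18.1) and Nt5e (13.5). Neighbours in that order were separated in every library down to Ikzf4 against Entpd1, and again for Lrrc32 against Ikzf2. The ranges over the 6 libraries overlapped for Entpd1 and Lrrc32, Ikzf2 and Nrp1, Nrp1 and Nt5e, and Nt5e and Foxp3, although Nt5e exceeded Foxp3 within each of the 6 libraries. Il2ra alone made up 83.4% to 85.2% of the reads of the 10 genes.

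**Figure D1:**
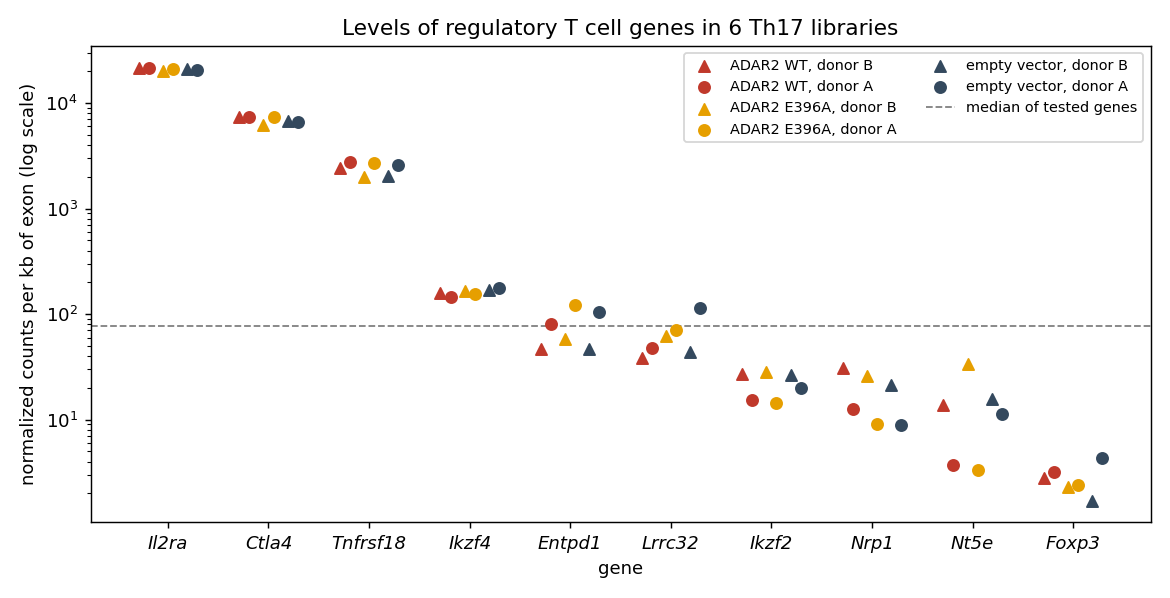
Normalized counts per kilobase of exon (log scale) of the 10 regulatory T cell genes, 1 point per library, coloured by construct, with triangles for donor B and circles for donor A; the dashed line is the median of 14958 tested genes (77.8 per kb). Il2ra, Ctla4 and Tnfrsf18 lie far above that line in all 6 libraries. Foxp3, Nt5e, Nrp1 and Ikzf2 lie below it in all 6. Nrp1, Ikzf2, Nt5e, Entpd1 and Tnfrsf18 separate by donor.

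The transcription factors were, except Ikzf4, low. Foxp3 (ENSMUSG00000039521.13, chromosome X, 7573644 to 7595245, plus strand, mm10) was listed at 12.7 and 14.6 normalized counts in ADAR2 WT, 10.5 and 10.9 in ADAR2 E396A and 7.82 and 19.9 in empty vector libraries, the donor B library first in each pair here and below. The empty vector libraries held both the lowest and the highest value, and the construct groups lay between them. In reads, Foxp3 had 11 and 15 in ADAR2 WT, 12 and 11 in ADAR2 E396A, and 8 and 19 in empty vector libraries. The sums were 26 (exact 95% Poisson interval 17.0 to 38.1), 23 (14.6 to 34.5) and 27 (17.8 to 39.3) reads. These intervals cover counting error only. They overlap throughout. In bulk RNA, fewer Foxp3-expressing cells and less Foxp3 RNA per cell cannot be told apart, here or for any other gene below. Foxp3 exons share 853 bases on the same strand with Flicr, a noncoding gene with 4 to 15 reads per library. They share 590 bases on the opposite strand with Ccdc22 (0 to 1 reads), 373 with Gm36995 (2 to 6 reads) and 266 with Ppp1r3f (24 to 36 reads). The strand setting of the counting is not given in the sources used here, so the division of reads among these genes is uncertain.

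Ikzf2 and Ikzf4 encode Helios and Eos, Ikaros-family zinc finger factors of which Eos acts as a Foxp3 corepressor. Ikzf2 stood at 314 and 176 normalized counts in ADAR2 WT, 326 and 166 in ADAR2 E396A, and 309 and 230 in empty vector libraries. In each group the donor B library was the higher, and the 3 donor B libraries lay above the 3 of donor A. Ikzf4 stood at 943 and 872 in ADAR2 WT, 997 and 921 in ADAR2 E396A, and 1013 and 1056 in empty vector libraries. Both empty vector libraries exceeded the other 4, by small margins, and the donors overlapped.

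The receptors of activated and regulatory T cells were the most abundant. Il2ra (ENSMUSG00000026770.5, chromosome 2, 11642807 to 11693193, plus strand) stood at 121760 and 123886 normalized counts in ADAR2 WT, 115669 and 118832 in ADAR2 E396A, and 118930 and 117100 in empty vector libraries. Its highest library was only 1.07 times its lowest. Ctla4, the inhibitory receptor that competes with CD28 for CD80 and CD86, stood at 17057 and 17008 in ADAR2 WT, 14513 and 17355 in ADAR2 E396A, and 15722 and 15292 in empty vector libraries. Both ADAR2 WT libraries lay above both empty vector libraries, and the ADAR2 E396A libraries held the lowest and the highest value of the 6. Tnfrsf18, which encodes the costimulatory receptor GITR, stood at 3735 and 4232 in ADAR2 WT, 3062 and 4082 in ADAR2 E396A, and 3133 and 3986 in empty vector libraries. All 3 donor A libraries exceeded all 3 of donor B. Its exons share 414 bases with the opposite-strand gene Gm16008, which had 60 to 93 reads per library. Nrp1, a semaphorin and VEGF co-receptor (neuropilin-1) that in mice marks regulatory T cells of thymic origin, stood at 305 and 123 in ADAR2 WT, 252 and 89.0 in ADAR2 E396A, and 207 and 87.8 in empty vector libraries. Every donor B library exceeded every donor A library.

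Lrrc32 stood at 178 and 224 normalized counts in ADAR2 WT, 289 and 334 in ADAR2 E396A, and 205 and 541 in empty vector libraries. The highest value was the donor A empty vector library, and both ADAR2 WT libraries lay below both ADAR2 E396A libraries. Entpd1 stood at 262 and 447 in ADAR2 WT, 323 and 676 in ADAR2 E396A, and 258 and 586 in empty vector libraries. Donor A exceeded donor B throughout. Nt5e stood at 118 and 32.2 in ADAR2 WT, 287 and 28.7 in ADAR2 E396A, and 136 and 97.3 in empty vector libraries. It had the widest range of the 10 genes, and its high value was the donor B ADAR2 E396A library.

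The effect of the active enzyme was read from ADAR2 WT against empty vector. None of the 10 genes reached an adjusted p under 0.05 in limma's test, where 0.816% of all tested genes passed (122, of which 66 were higher and 56 lower). edgeR and DESeq2 with the donor term also called 0 of the 10. At an unadjusted p under 0.05 there were 3, Nrp1, Lrrc32 and Tnfrsf18, beside 14.1% of all tested genes. Nrp1 had a log2 difference of 0.52 (SE 0.15, limma adjusted p = 0.173), with ratios of 0.55 in donor B and 0.48 in donor A on the log2 scale. Lrrc32 had -0.73 (SE 0.25, adjusted p = 0.252), which was made of -0.20 in donor B and -1.27 in donor A. The 2 donors thus had the same sign but sizes that differed widely. Tnfrsf18 had 0.17 (SE 0.07, adjusted p = 0.354), with 0.25 in donor B and 0.09 in donor A. Nt5e had -0.88 (SE 0.51, adjusted p = 0.478), with -0.20 in donor B and -1.57 in donor A.

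For Foxp3 the log2 fold change of ADAR2 WT over empty vector was 0.11 with a 95% interval of -0.95 to 1.17 (adjusted p = 0.940). The donors had opposite signs, 0.64 in donor B and -0.42 in donor A, and the interval spans about 1 log2 unit in either direction. The abundant genes were bounded far more tightly. Il2ra had 0.06 (95% interval -0.11 to 0.22) and Ctla4 0.14 (-0.05 to 0.32), and neither passed. Ikzf2, Ikzf4 and Entpd1 had -0.18, -0.19 and -0.18, with adjusted p between 0.357 and 0.638. Over the 10 genes, 7 had the same sign in both donors, beside 62.7% of all tested genes, and 3 had groups that did not overlap, beside 37.2% of all tested genes. The median log2 fold change was -0.06 for the 10 genes and 0.00 for all tested genes (-0.0025), and the median absolute value 0.18 and 0.14.

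The calls changed with the libraries in the fit. With the 4 ADAR2 WT and empty vector libraries alone, Nrp1, Lrrc32 and Nt5e passed. In that fit 1217 of all tested genes passed, against 122 with all 6 libraries, so the rise was not limited to these 3. With a library left out, the log2 fold change ranged from 0.43 to 0.60 for Nrp1 and from -1.29 to -0.17 for Lrrc32. For Nt5e it ranged from -1.92 to 0.16.

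The effect of the protein without deaminase activity was read from ADAR2 E396A against empty vector. None of the 10 genes passed (0.0134% of all tested genes did, 2 in number), and none had an unadjusted p under 0.05, beside 3.89% of all tested genes. edgeR and DESeq2 also called 0. The nearest was Entpd1, with a log2 difference of 0.26 (SE 0.12, limma adjusted p = 0.999) and the same sign in donor B (0.32) and donor A (0.21). Foxp3 had -0.21 with a 95% interval of -1.27 to 0.84. For Il2ra the interval was -0.17 to 0.15 and for Tnfrsf18 -0.17 to 0.17. Only 3 of the 10 genes, Ikzf4, Nrp1 and Entpd1, had the same sign in both donors, beside 45.3% of all tested genes. Ikzf4 was the 1 gene of the 10 whose groups did not overlap, beside 23.4% of all tested genes. The donors were farthest apart for Nt5e, with a log2 ratio of 1.07 in donor B and -1.73 in donor A, and 0.528% of all tested genes differed by at least 1 in opposite directions in this comparison. Without the donor B ADAR2 E396A library, the log2 fold change of Nt5e was -1.38.

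ADAR2 WT was then compared directly with ADAR2 E396A, to ask what depended on the catalytic residue. Adarb1 itself was higher in both ADAR2 WT libraries (19077 and 18499 normalized counts) than in those of ADAR2 E396A (14982 and 15709). Its log2 fold change was 0.29 (SE 0.07, limma adjusted p = 0.161). The catalytic residue and the level of the construct therefore cannot be told apart. Again none of the 10 genes passed, where 0.0669% of all tested genes did (10 in number), and edgeR and DESeq2 called 0. At an unadjusted p under 0.05 there were 4, beside 12.4% of all tested genes. Entpd1 had a log2 difference of -0.45 (SE 0.12, limma adjusted p = 0.215), with -0.30 in donor B and -0.59 in donor A. Lrrc32 had -0.63 (SE 0.25, adjusted p = 0.359), with -0.69 in donor B and -0.57 in donor A. Nrp1 had 0.37 (SE 0.15, adjusted p = 0.362), with 0.27 in donor B and 0.46 in donor A. Tnfrsf18 had 0.17 (SE 0.07, adjusted p = 0.403), with 0.29 in donor B and 0.05 in donor A. For all 4 genes the 2 donors agreed in sign, and for Lrrc32 in size. Foxp3 had 0.33 with a 95% interval of -0.73 to 1.39. Of the 10 genes 7 had the same sign in both donors, beside 62.5% of all tested genes, and the groups did not overlap for Foxp3, Il2ra and Lrrc32, beside 36.7% of all tested genes. With the 4 libraries of the comparison alone Lrrc32 passed, where 305 of all tested genes did, against 10 with all 6 libraries. The log2 fold change of Lrrc32 was -0.63 without either empty vector library, in each case. Without the donor A ADAR2 E396A library it was -0.96, and that of Nt5e was -1.61. The comparisons with the empty vector share their controls, and those with each construct share that construct, so they are not independent of each other.

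**Figure D2:**
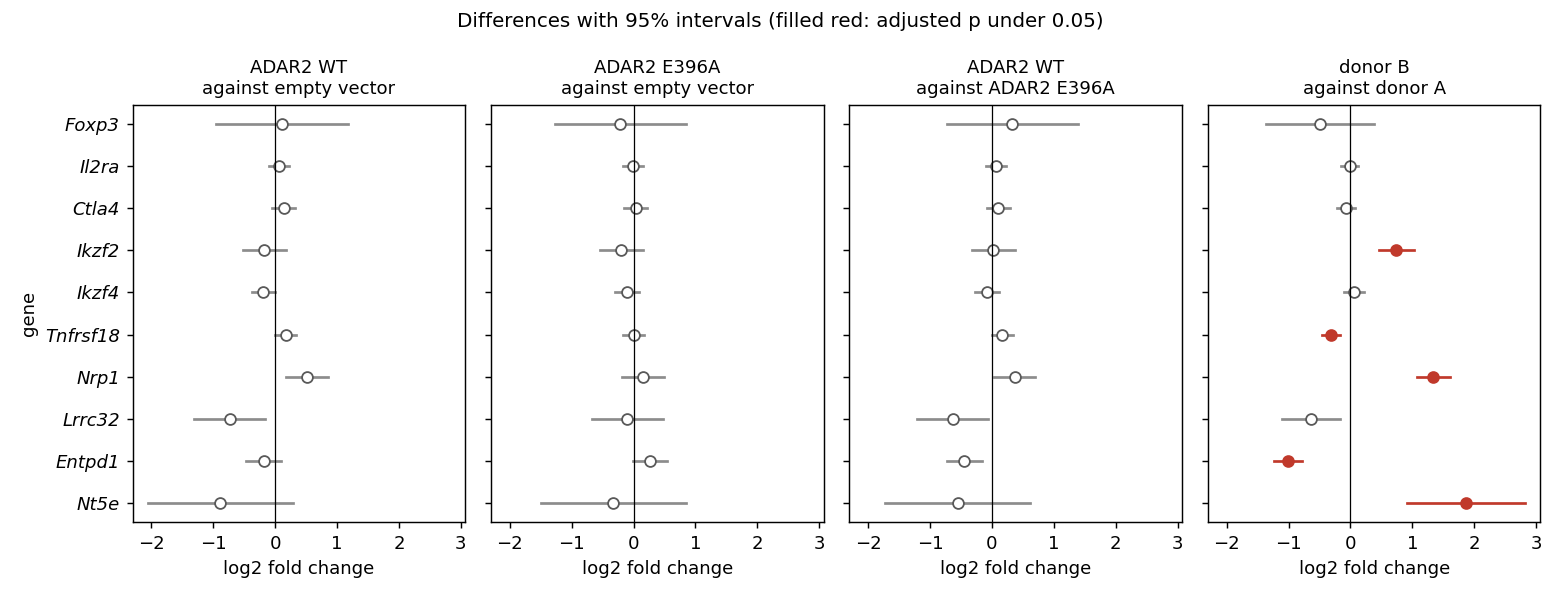
Log2 fold changes (points) with 95% intervals (lines) of the 10 genes in the 3 construct comparisons and between donors, from limma; filled red marks an adjusted p under 0.05. No gene is red in the construct comparisons, where the Foxp3 and Nt5e intervals are widest, and 5 are red between donors, from Nt5e at 1.87 to Entpd1 at -1.004.

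The larger differences among the 10 genes lay between the donors. Nt5e, Nrp1 and Ikzf2 were higher in donor B and Entpd1 and Tnfrsf18 were lower, so 5 of 10 passed, where 7.51% of all tested genes did (1124, of which 555 or 3.71% were higher and 569 or 3.8% lower). At an unadjusted p under 0.05 there were 6, beside 22% of all tested genes. The same 5 were the genes whose donors did not overlap, beside 22.8% of all tested genes. Each donor is 1 mouse, and its 3 libraries are not replicates of a difference between mice, so the p-values measure the spread among cultures only. Mouse, culture and handling cannot be told apart. edgeR called the same number, 5, and DESeq2 4. Without the intensity trend in the variance estimate that limma's test used here, 0 of the 10 passed.

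Nrp1 had a log2 fold change of donor B over donor A of 1.34 (SE 0.12, limma adjusted p = 0.00108). Its donor difference was much the same in the 3 groups, 1.30 in ADAR2 WT, 1.49 in ADAR2 E396A and 1.23 in empty vector cells. Entpd1 had -1.004 (SE 0.10, adjusted p = 0.00163), made of -0.77 in ADAR2 WT, -1.06 in ADAR2 E396A and -1.18 in empty vector cells. Ikzf2 had 0.74 (SE 0.12, adjusted p = 0.0112), with 0.83, 0.97 and 0.42 in the same order of groups. Tnfrsf18, whose absolute level was high, differed by the smaller amount of -0.31 (SE 0.06, adjusted p = 0.0180), with -0.18, -0.41 and -0.35. Nt5e had 1.87 (SE 0.42, adjusted p = 0.0329), and its donor difference was uneven: 1.84 in ADAR2 WT, 3.28 in ADAR2 E396A and 0.48 in empty vector cells. Without either ADAR2 WT library only Nrp1 and Entpd1 passed, and Nt5e did not pass with DESeq2.

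The 2 ectoenzymes of the ATP-to-adenosine route thus differed in opposite directions, Entpd1 lower and Nt5e higher in donor B. Lrrc32 had -0.64 (SE 0.20, limma adjusted p = 0.105), with -0.33 in ADAR2 WT, -0.21 in ADAR2 E396A and -1.39 in empty vector cells. Without either ADAR2 E396A library its log2 fold change was -0.86 in each case. Foxp3 had -0.49 (95% interval -1.36 to 0.37, adjusted p = 0.503), with -0.18 in ADAR2 WT, -0.05 in ADAR2 E396A and -1.24 in empty vector cells. Il2ra, Ctla4 and Ikzf4 had -0.01, -0.07 and 0.06, with 95% intervals inside -0.22 to 0.21. The median absolute log2 difference between donors was 0.57 for the 10 genes and 0.14 for all tested genes.

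**Figure D3:**
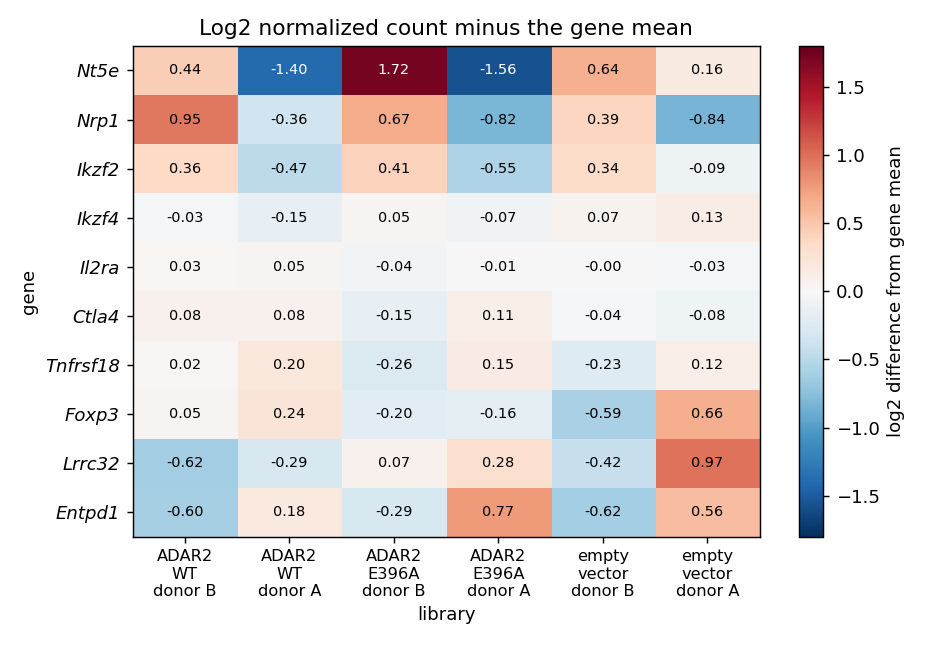
Log2 normalized count of each of the 10 genes (rows) in each library (columns, by construct and donor) minus the gene's mean over the 6 libraries, ordered by the donor B mean. Donor B and donor A columns alternate in sign for Nt5e, Nrp1, Ikzf2 and Entpd1 except Nt5e in the donor A empty vector library (0.16), and Nt5e reaches 1.72 in the donor B ADAR2 E396A library.

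Th17 genes differed between the same libraries. The summed Th17 markers were 45946 to 73755 normalized counts in donor B and 29894 to 38484 in donor A. Of the 10, Il17a (log2 fold change 2.05, limma adjusted p = 0.00146), Il17f (1.58, adjusted p = 0.00954) and Ccr6 (1.15, adjusted p = 0.00668) were higher in donor B, and Ahr (-0.98, adjusted p = 3.47e-04) and Maf (-0.39, adjusted p = 0.00646) were lower. Of the 4 T cell markers Cd3g (-0.37, adjusted p = 0.0451) and Cd3d (-0.29, adjusted p = 0.0260) were lower. Their part in the donor differences of the regulatory T cell genes was not tested. Of the 5 platelet markers, Pf4 and Ppbp were low but uneven. They had 7.002 and 5.25 normalized counts in the donor B ADAR2 E396A library and 10.8 and 11.7 in the donor B empty vector library. In the other 4 libraries they had at most 0.99 and 0. Itga2b, which made up most of the platelet sum, did not follow them. It stood at 43.8 and 25.4 in those donor B libraries and was highest, at 51.4, in the donor A ADAR2 E396A library. Gp9 had at most 1.16 and Gp1bb 0. The summed levels of 5 other lists overlapped between donors, at 51.0 to 73.5 in donor B and 50.5 to 61.7 in donor A for 6 myeloid markers, 1143 to 1579 and 1154 to 2027 for 5 plasmacytoid dendritic, 34.8 to 56.9 and 25.3 to 52.4 for 5 platelet, 202 to 350.1 and 250 to 307 for 5 endothelial, and 23.6 to 30.1 and 8.90 to 26.3 for 6 stromal markers. The endothelial sum came mostly from Pecam1. The plasmacytoid sum came mostly from Irf8, which T cells also express, while Siglech was at 0. That sum was 1143 to 1154 in ADAR2 WT and 1408 to 1579 in ADAR2 E396A, against 1554 to 2027 in empty vector libraries. Irf8 had a log2 fold change of -0.73 in ADAR2 WT against empty vector (limma adjusted p = 0.0416). Without the intensity trend 0 of all tested genes passed in that comparison, so Irf8 did not. Irf8 was not followed through the other alternatives.

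The surroundings of the 10 genes were read from 8 lists of 100 related genes, of which 93 passed the filter. In ADAR2 WT against empty vector 1 of the 93 passed, Adora3, which encodes an adenosine receptor, beside 0.816% of all tested genes. It stood at 6.95 and 11.7 normalized counts in ADAR2 WT and 32.4 and 58.4 in ADAR2 E396A, against 32.3 and 100.4 in empty vector libraries. Both ADAR2 WT libraries lay below the other 4. The log2 fold change of ADAR2 WT over empty vector was -2.53 (SE 0.33, limma adjusted p = 0.0240). Adora3 had 6 to 96 reads per library and shares 779 exon bases on the same strand with Tmigd3 (0 to 8 reads), so the division of reads between them is uncertain. It did not pass without either ADAR2 WT library (adjusted p = 0.696 without that of donor A and 0.148 without that of donor B), without the donor A empty vector library (0.173), without the donor term (0.660) or without the intensity trend (0.340). The log2 fold changes there were -2.26, -2.81, -2.11, -2.53 and -2.53 in the same order. At an unadjusted p under 0.05 there were 24 of the 93 in ADAR2 WT against empty vector, beside 14.1% of all tested genes. None of the 93 passed in ADAR2 E396A against empty vector (6 at an unadjusted p under 0.05, beside 3.89% of all tested genes) or in ADAR2 WT against ADAR2 E396A (27, beside 12.4%). edgeR with TMM called 2 and DESeq2 2 in the last.

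The genes given next are those of highest level in their lists, so their abundance follows from that choice. Other genes of the same lists were low. Gpr83 stood at 13.1 to 39.0 and Il1rl1 at 0.97 to 23.5 normalized counts, both picked after their values were seen. Among IL-2 signal genes the most abundant were Il2rb (11664 to 13573 normalized counts over the 6 libraries), Jak1 (7264 to 8545) and Stat5a (5935 to 6476), the beta chain, kinase and transcription factor that act downstream of IL-2. Of the genes listed as Foxp3 regulators, Satb1 stood at 29479 to 35176, Irf4 at 16328 to 19520 and Ets1 at 10977 to 16462. In the other Ikaros-family list Ikzf1 stood at 6067 to 8149. Other receptors of regulatory T cells included Tnfrsf9 (4-1BB) at 11998 to 18585, Tnfrsf4 (OX40) at 6658 to 9116 and Icos at 4450 to 5449. Of the effector genes, Lgals1 (galectin-1) stood at 9920 to 11705, Gzmb at 1779 to 8641 and Tgfb1 at 3642 to 4093. Furin, whose protease cleaves the TGF-β precursor, stood at 9176 to 14527.

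Between donors 30 of the 93 genes passed, 15 higher and 15 lower in donor B, beside 7.51% of all tested genes. The genes named here for the donor difference were chosen after their values were seen. Of 14 tested receptors 6 were lower: Havcr2 (TIM-3, log2 fold change -1.88), Tigit (-1.17), Lag3 (-0.90), Itgae (CD103, -0.80), Izumo1r (-0.57) and Tnfrsf9 (-0.26). Pdcd1 (PD-1) was higher at 0.56. Lag3 stood at 931, 908 and 928 normalized counts in the 3 donor B libraries, against 1430, 1936 and 1844 in the donor A libraries of the same groups. Of the inhibitory receptors among them, Havcr2, Tigit and Lag3 were thus lower in donor B and Pdcd1 was higher. Of 9 tested effector genes Prdm1 (Blimp-1, -1.38) and Gzmb (granzyme B, -1.34) were lower and Areg (amphiregulin, 1.01) was higher.

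Of 29 tested Foxp3 regulators 6 were higher in donor B, Nr4a3 (0.59), Nr4a2 (0.51), Nr4a1 (0.38), Foxp1 (0.37), Bach2 (0.34) and Rel (0.26), and Foxo1 (-0.56) and Ets1 (-0.42) were lower. All 3 genes of the Nr4a nuclear receptor family, which are induced by T cell receptor signals, were among those higher. Of 10 IL-2 signal genes Il2 (1.32) was higher and Socs2 (-0.25) lower. Ikzf3 (Aiolos) was lower by -1.54 as a log2 fold change, with 235, 172 and 236 normalized counts in donor B libraries of ADAR2 WT, ADAR2 E396A and empty vector, against 466, 763 and 666 in the donor A libraries. Its relative Ikzf2 went the other way. Of 8 latent TGF-β genes Tgfb2 (1.19), Itgb8 (0.71) and Furin (0.38) were higher and Ltbp3 (-1.31) lower, of 12 adenosine genes Pnp (0.43) and Adora2a (0.36) were higher and Ada (-0.68) and Enpp1 (-0.68) lower, and of 8 ligands and partners Cd80 (0.50) was higher. Limma adjusted p lay between 0.00146 for Nr4a3 and 0.0395 for Itgb8. Without the donor A ADAR2 WT library 6 of these 30 genes passed, without that of donor B 11, and without either empty vector library 25. Without the intensity trend in the variance estimate 0 of the 30 passed.

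**Figure D4:**
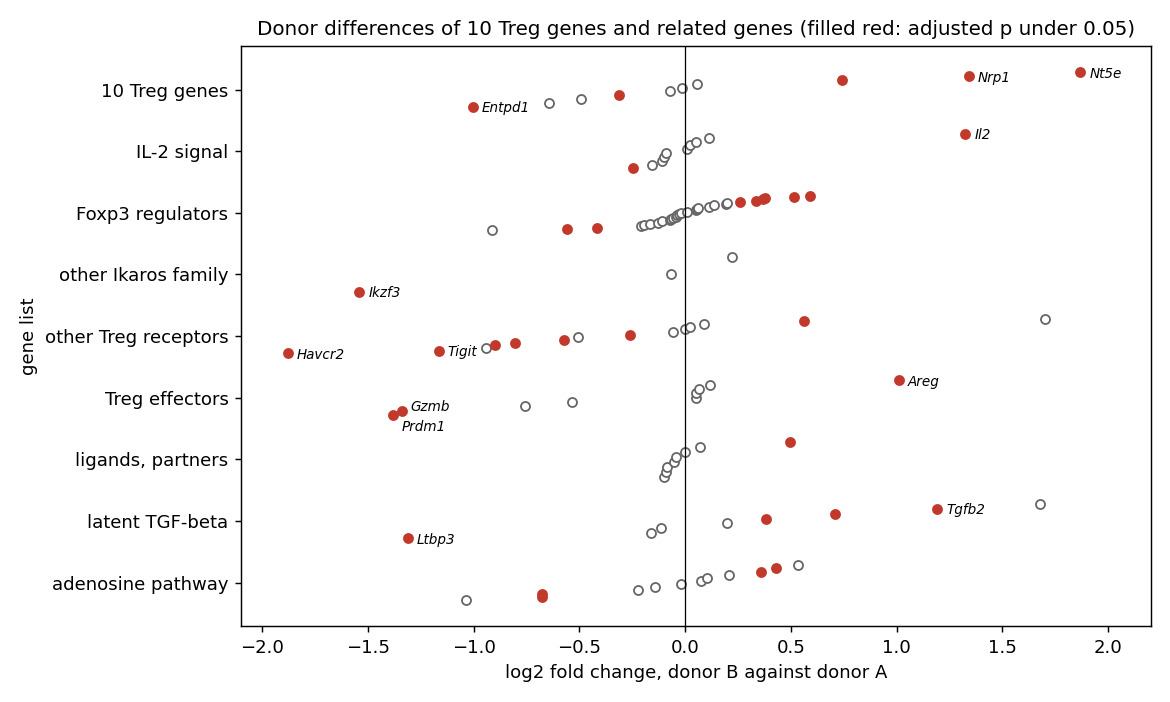
Log2 fold changes of donor B over donor A for the 10 regulatory T cell genes and the 93 tested genes of 8 related lists, 1 point per gene, filled red where the limma adjusted p is under 0.05 and named where the change is also at least 0.9. Of the 10 genes 3 are red above 0 and 2 below, and of the 93 related genes 15 above and 15 below, with Havcr2 at -1.88 and Nt5e at 1.87 the farthest.

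Klrg1, a receptor of differentiated regulatory T cells, and the adenosine receptor gene Adora1 had 0 reads in every library. Some related genes were low in 1 library. Gata3 stood at 686 normalized counts in the donor B ADAR2 E396A library, against 1720 to 4092 in the other 5. Ccr8, a chemokine receptor gene of effector regulatory T cells and Th2 cells, stood at 163 there, against 524 to 1139, and Il10 at 549, against 1089 to 1848. This was the library in which Nt5e was highest of the 6. These genes were chosen after their values were seen. How many of all tested genes were lowest in that library was not counted, and a link to Nt5e was not tested.

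The protein-coding genes whose profile over the 6 libraries was most like that of Foxp3, and of the 5 genes that differed between donors, were sought among 10039 genes by the root mean square difference of mean-centred log2 values. For Foxp3 they were Dcun1d4 (0.14), Tmem107 (0.17) and Purg (0.18), where the root mean square deviation of Foxp3 from its own mean was 0.39. With 8 to 19 reads per library, the Foxp3 profile carries counting error. For Nrp1 they were Kynu, Ifit1 and Plaur (0.15 to 0.16, own deviation 0.71), for Ikzf2 Fut8, Plod2 and Pdgfb (0.06 to 0.09, own deviation 0.40), and for Tnfrsf18 Cdc25b, Tmem201 and Inka1 (0.05 each, own deviation 0.18). For Entpd1 they were Matk, Lag3 and Cyb561 (0.11 to 0.14, own deviation 0.54), Lag3 being also a regulatory T cell receptor gene of the lists. For Nt5e they were Nebl, Nid1 and Myof (0.37 to 0.43, own deviation 1.15).

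The authors' deposited table for ADAR2 WT gives log2 fold changes of empty vector over ADAR2 WT, the reverse direction of those above. There the authors' deposited table lists Nrp1 at -0.52 (SE 0.30, adjusted p = 0.770), Lrrc32 at 0.74 (SE 0.51, adjusted p = 0.980) and Nt5e at 0.86 (SE 0.45, adjusted p = 0.656), and gives no adjusted p for Foxp3. In the authors' deposited table for ADAR2 E396A, likewise empty vector over construct, the 10 genes have adjusted p-values of 1.00 to 3 digits.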

How the data were processed

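Per the labels' protocols, the 6 libraries were made from ribosome-depleted RNA and read on a NovaSeq. The submitters' processing notes name STAR 2.6.1a, featureCounts, DESeq2 1.18.1 and the mm10 build. The authors deposited 2 tables of 55450 genes, 1 per construct. Each holds, per the file headers, the mean signal of normalized counts in 4 libraries, a log2 fold change with its standard error, a Wald statistic (score), a p-value and an adjusted p-value. The columns were assigned to groups by the tables' names, the libraries in both tables being the empty vector. The labels do not say which library came from which donor. DESeq2 refitted with donors paired by library number returned the deposited Wald statistics within 8.07e-04 (ADAR2 WT, 28601 genes) and 0.00114 (ADAR2 E396A, 28872 genes), against 13.8 and 6.08 with donors crossed and 6.67 and 2.03 with no donor term. The calls depend on that pairing, and the labels do not say which replicate number is donor A.

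Whole reads were recovered from the deposited values (100.0% of values above 0 whole within 0.001 of a read). They were rescaled by median-of-ratios factors over the 6 libraries and filtered with edgeR's filterByExpr. Each gene was tested as log2(normalized count + 1) with limma 3.58.1 in R 4.3.3, group and donor as terms, Benjamini-Hochberg adjustment over 14958 genes, and a call at 0.05. Fold changes on that scale understate changes of low genes. The planned fit had no intensity trend in its variance estimate. It failed its test on simulated data, so the trend, planned as an alternative, was made part of the fit. The effect on the real counts was seen at the same time, so this choice was not blind. Counts without the trend are given with the sensitivity results. Count tests were edgeR 4.0.16 and DESeq2 1.42.0 on the recovered reads. Alternatives were other scalings, filters, pseudocounts and thresholds, no donor term, the 4 libraries of a comparison, and each library left out. Replicates are cultures from different mice, 1 per donor in each group, paired by donor, and n = 2 per group.

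Gene names, positions and exon lengths came from GENCODE vM21, where all 55450 IDs matched. Promoter windows came from RefSeq. The 10 genes, the lists and the tests were chosen with earlier results of these data known. Genes named were the 10, any list gene called in a construct comparison, up to 3 of highest level per list, and the 3 genes most like Foxp3 and each member called. Others are said to have been chosen after their values were seen. The summed B cell markers are not reported here.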

Additional observations from a re-analysis of the deposited data

Results flagged for a closer look

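Nt5e moved in opposite directions in the donors under ADAR2 E396A against empty vector, with a log2 ratio of 1.0731 in donor B (287 against 136 normalized counts) and -1.7266 in donor A (28.7 against 97.3). Each donor has 1 library per group, so the difference between the donors was not tested. Ratios of at least 1 with opposite signs were found for 0.528% of all tested genes in this comparison.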

How the results depend on the processing

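The 10 regulatory T cell genes had 0 calls in each construct comparison under each alternative on the 6 libraries. With the 4 libraries of a comparison alone, 3 passed for ADAR2 WT against empty vector and 1 for ADAR2 WT against ADAR2 E396A. Leaving out each library in turn changed how many of the 10 genes passed, and how many of all tested genes did. Effect sizes of such fits are given above. The cause of these shifts was not tested.

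Over all genes, ADAR2 WT against empty vector gave 122 calls, and 2 without the replicate block for donor, 216 with DESeq2, 220 without a filter, 58 with a mean of at least 50, 0 without the intensity trend, 267 at an adjusted p of 0.1, 1217 with 4 libraries, and 1 to 1230 with a library left out. ADAR2 E396A against empty vector gave 2, and 1 without the block, 7 with DESeq2, 5 without a filter, 0 without the trend, 1 with 4 libraries and 1 to 140 with a library left out. ADAR2 WT against ADAR2 E396A gave 10, and 0 without the block, 42 with edgeR and TMM, 109 with DESeq2, 39 with TMM scaling, 102 without a filter, 3 with a mean of at least 50, 0 without the trend, 56 at 0.1, 305 with 4 libraries and 0 to 900 with a library left out. The donor difference gave 1124, and 1753 at 0.1, 0 without the trend and 83 to 1730 with a library left out.

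Of the related genes, ADAR2 WT against empty vector gave 1 call, and 0 without the block, with a mean of at least 50 or without the trend, 2 with DESeq2 or total-read scaling, 3 with edgeR and TMM, 4 with TMM scaling or no filter, 5 at 0.1, 28 with 4 libraries and 0 to 26 with a library left out. ADAR2 E396A against empty vector gave 0, and 0 to 7 with a library left out. ADAR2 WT against ADAR2 E396A gave 0, and 2 with edgeR and TMM, DESeq2, TMM scaling or at 0.1, 3 without a filter, 6 with 4 libraries and 0 to 19 with a library left out.

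Signs turned only for small or uncertain differences that had not passed. As log2 fold changes, Nt5e in ADAR2 E396A against empty vector was 0.0480 with edgeR and 0.0587 with edgeR and TMM. Il2ra in that comparison was 0.0021 with edgeR and TMM, 0.0023 with TMM scaling and 0.0188 with total reads, and between donors 0.0194 with total reads. Ikzf2 in ADAR2 WT against ADAR2 E396A was -0.0050 with edgeR and TMM. With a library left out, ADAR2 WT against empty vector ranged from -0.45 to 0.67 for Foxp3, -0.41 to 0.0567 for Ikzf2 and -1.92 to 0.16 for Nt5e. ADAR2 E396A against empty vector ranged from -0.77 to 0.35 for Foxp3, -0.0381 to 0.0208 for Il2ra, -0.11 to 0.18 for Ctla4, -0.43 to 0.0392 for Ikzf2, -0.0746 to 0.0798 for Tnfrsf18, -0.66 to 0.46 for Lrrc32 and -1.38 to 0.73 for Nt5e. ADAR2 WT against ADAR2 E396A ranged from -0.0069 to 0.65 for Foxp3, -0.0420 to 0.24 for Ctla4, -0.15 to 0.18 for Ikzf2 and -1.61 to 0.50 for Nt5e, and donors from -0.0331 to 0.0016 for Il2ra and -0.13 to 0.0250 for Ctla4. Foxp3 had 8 to 19 reads per library, so counting error is part of its wide interval. Its share beside the spread between cultures was not tested.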
